A study of Mus musculus with 12 samples.

Results

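Transcripts for the uptake and oxidation of fatty acids were examined in the aorta of mice given CM-695 or vehicle, as a set of 35 genes chosen by name. The genes were matched by exact symbol in the array annotation, and 32 of the 35 were measured, among 22180 genes with a probe set (a group of array probes read as 1 value) that named only them. Acsl1 and Ucp2 had 0 probe sets under their symbols and 1 probe set named Cpt1b together with another gene, so these 3 genes were not analysed here. A gene with several probe sets was represented by the brightest of them, by its mean over the 12 arrays.

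Aortic vessel tissue came from 12 female mice of the CD-1 strain, which is outbred, and each mouse had its own array. CM-695, labelled as inhibiting both the deacetylase HDAC6 and phosphodiesterase 9, was injected intraperitoneally into 6 mice at 80 mg/kg, 2 h before sacrifice and once more 1 h before it. The other 6 mice received saline, recorded as 1 injection in the series design, so CM-695 and vehicle mice may not have been injected equally often. Every mouse was perfused with phosphate buffered saline before the vessel was taken, and their ages and the time of day are not given in these sources. Values are RMA expression on the log2 scale, where 1 unit is a doubling, and differences are CM-695 minus vehicle from limma with its standard error (SE) and p-values adjusted over all 41345 probe sets by the Benjamini-Hochberg method.

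Fatty acids reach vessel-wall and fat cells when lipoprotein lipase, held on the endothelium by GPIHBP1, splits circulating triglyceride, and ANGPTL4 inhibits that lipase. Inside the cell they are carried by binding proteins, coupled to coenzyme A, passed into mitochondria by the carnitine shuttle and shortened step by step by beta-oxidation. The nuclear receptors PPAR alpha and PPAR delta sense fatty acids and switch on many of these genes, Angptl4, Pdk4 and Plin2 among them; Angptl4 and Pdk4 are also induced by fasting and by glucocorticoids. Brown fat, which lies around the mouse aorta, and heart muscle are tissues rich in this pathway.

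The tissue matched its label and held more than the vessel wall. All 10 vascular smooth muscle markers exceeded the median of the vehicle arrays (4.72), and so did 8 of 9 measured brown adipocyte markers, 7 of 7 markers of white and brown adipocytes and 12 of 12 heart muscle markers. That median is over all probe sets, with or without a gene name, and 5 of 11 skeletal muscle markers also exceeded it. Exceeding it does not by itself show that a cell type was present. The thermogenic uncoupling gene Ucp1, a defining brown fat marker, measured 12.25 to 12.83 (median 12.66) in the vehicle mice and 11.85 to 13.17 (median 12.55) in the CM-695 mice. The mean of the brown adipocyte markers ran from 8.65 to 9.24 over vehicle mice and from 8.61 to 9.39 over CM-695 mice. Heart muscle markers were lower in the CM-695 group, with 11 of 12 below 0 in difference, a median difference of -1.68 and means of 7.39 to 9.33 against 6.02 to 8.50. None of the 12 passed (lowest adjusted p = 0.212), and 10 had an unadjusted p under 0.05. For this list and the next lists, 4.14% of all genes were lower at such a p. Fibroblast markers were below 0 for 10 of 10 genes (median difference -0.42, 4 at an unadjusted p under 0.05), with means of 8.51 to 9.35 in vehicle mice against 8.32 to 8.84. Smooth muscle markers were below 0 for 10 of 10 (median -0.27, 0 at an unadjusted p under 0.05). Hepatocyte markers were above 0 for 8 of 8 (median 0.34), and 4 of the 8 exceeded the array median. For 1 of the 8 the groups separated fully, where 0.442% of all genes separated upward. The mean of this list was 4.44 to 4.89 in the vehicle mice. It was 6.91 in CM-695 mouse 5, 5.38 in CM-695 mouse 4 and 4.39 to 4.82 in the rest of that group. None of the markers of these lists passed the adjusted threshold, and their part in the results for the fatty acid genes was not tested except where a covariate is named. In whole tissue, fewer cells of a type and less RNA per cell cannot be told apart.

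CM-695 mouse 2 stood apart from the other arrays for these genes and is left out in a second set of values. It was the lowest of all 12 arrays for 23 of the 32 genes, against 13% of all genes. The same mouse had the highest mean of the vascular smooth muscle markers (10.42, against 8.49 to 9.46 in the other CM-695 mice) and the lowest means of the brown adipocyte markers (8.61) and of the white and brown adipocyte markers (8.72).

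No gene of the set passed the adjusted threshold of 0.05. With all 12 mice the fatty acid genes had a median difference of 0.048, with 20 above 0 and 12 below, while the median over all genes was 0.020 and 55.3% of all genes lay above 0. Over all genes, 0.167% passed the adjusted threshold and 9.1% had an unadjusted p under 0.05, 4.96% higher and 4.14% lower. In the set, 5 of 32 genes (15.6%) had such an unadjusted p, with Angptl4, Fabp3 and Plin2 higher and Lpl and Slc27a2 lower. For 0 of the 32 genes did the groups separate fully in either direction, where 0.442% of all genes separated upward and 0.636% downward.

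Leaving out CM-695 mouse 2 moved the set upward without bringing any gene past the threshold. As this mouse was the lowest array for 23 of the 32 genes, a rise of their differences follows from leaving it out. Vehicle mice 3 and 4, which held the lowest vehicle value of 28 of the 32 genes, were kept. The median difference without CM-695 mouse 2 was 0.22, with 25 genes above 0 and 7 below, against 54.7% of all genes above 0 and a median over all genes of 0.020. In that comparison 0 of 32 genes passed, against 0.257% of all genes, and 7 had an unadjusted p under 0.05 (5 higher, 2 lower), against 12.1% (6.23% higher, 5.87% lower). Pdk4 and Hadh joined the 5 genes named above. In the same 11 mice the white and brown adipocyte markers were above 0 for 7 of 7 genes (median 0.34, 4 at an unadjusted p under 0.05). Smooth muscle markers were below 0 for 10 of 10 (median -0.54, 2 at an unadjusted p under 0.05), and so were fibroblast markers for 10 of 10 (median -0.47, 7 at an unadjusted p under 0.05).

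**Figure D1:**
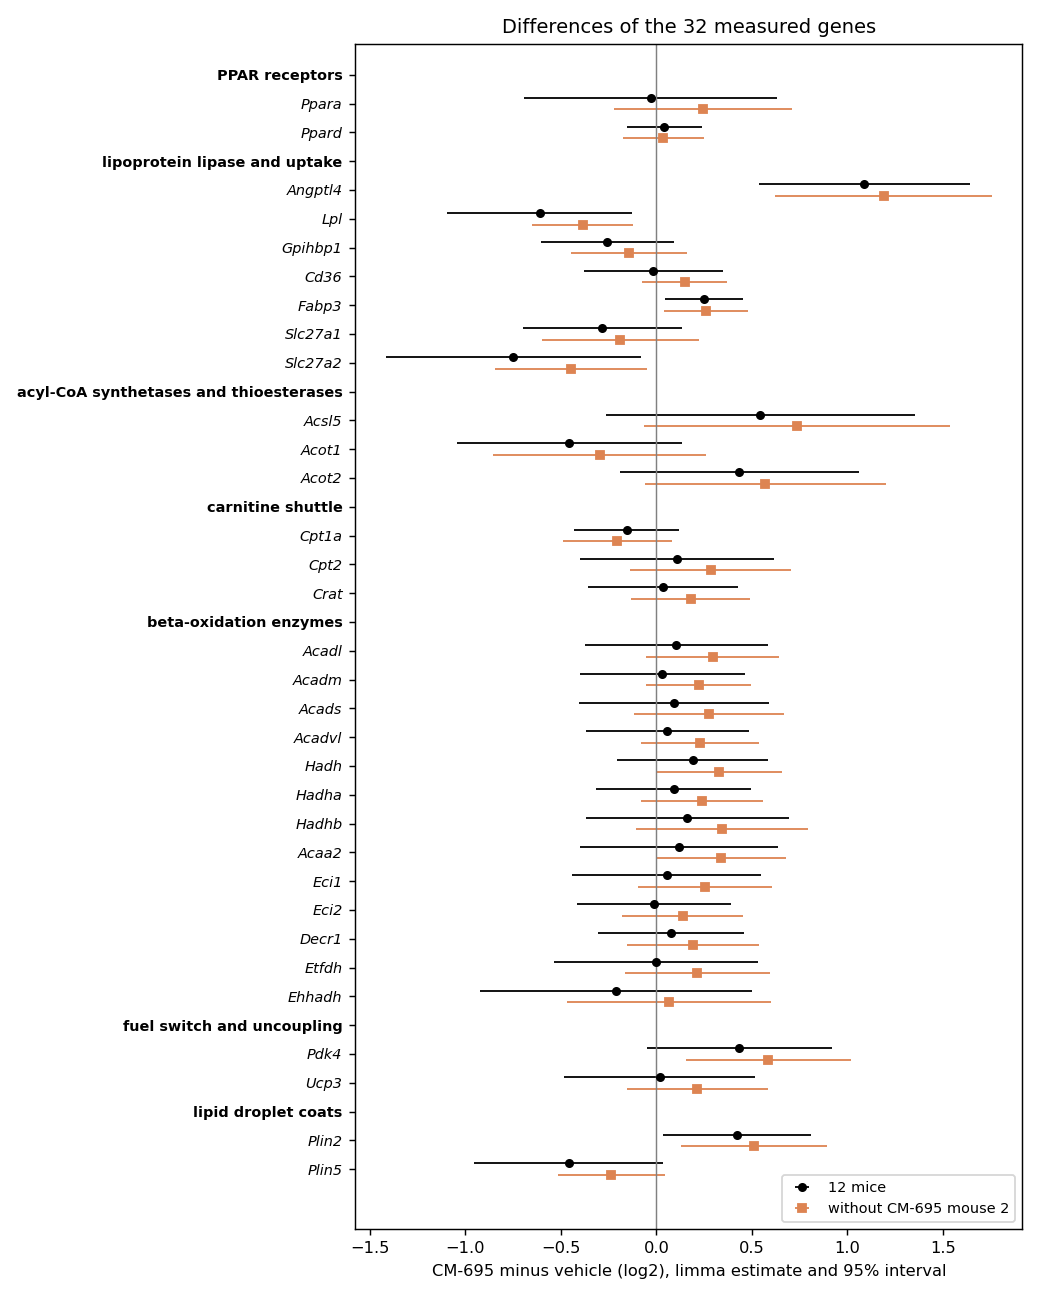
Differences between CM-695 and vehicle (log2, horizontal axis) for the 32 measured genes, ordered by role, with limma's 95% intervals; black circles use all 12 mice and orange squares leave out CM-695 mouse 2. Angptl4 lies farthest to the right with both sets of mice, and all 13 beta-oxidation enzymes lie to the right of 0 once mouse 2, their lowest array, is left out.

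Promoter sequence was available from RefSeq (GRCm38.p6) for 28 of the 35 genes, in 32 windows, and the 250 bases before each start site were searched on both strands. The 7 genes without a window, which were not searched, were Angptl4, Lpl, Gpihbp1, Cpt1b, Crat, Acaa2 and Decr1. The full PPAR-RXR element, a direct repeat spelled AGGTCANAGGTCA, was in 0 of the 32 windows and in 0.0335% of all 32851 windows. At so low a share, 0 was likely for any 32 windows and says little about these genes. A single copy of its repeated unit, AGGTCA, was in 8 of 32, in Acadm, Acadvl, Cd36, Cpt1a, Plin2, Plin5, Slc27a2 and Ucp3, and in 14% of all windows; a full element also holds the unit. The E-box CACGTG, bound by the circadian clock activators, was in 1 of 32 (Slc27a1) and in 6.02% of all windows. These matches are letters in a window and not binding sites, and PPAR elements can lie outside it.
The windows printed here are those of Pdk4 and Plin2, as PPAR targets, and of Acadm and Hadhb, as beta-oxidation enzymes that varied together; capitals mark the unit on either strand (TGACCT where it is read on the reverse strand), and the Hadhb window shares 228 of its 250 bases with that of Hadha, which is read the other way.
Pdk4 (GRCm38.p6, chr6:5496279-5496528, minus strand): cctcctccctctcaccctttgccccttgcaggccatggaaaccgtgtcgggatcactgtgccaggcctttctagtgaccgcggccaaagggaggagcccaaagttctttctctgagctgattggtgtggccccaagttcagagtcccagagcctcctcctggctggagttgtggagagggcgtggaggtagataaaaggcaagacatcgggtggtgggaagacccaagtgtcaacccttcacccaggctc
Plin2 (GRCm38.p6, chr4:86670060-86670309, minus strand): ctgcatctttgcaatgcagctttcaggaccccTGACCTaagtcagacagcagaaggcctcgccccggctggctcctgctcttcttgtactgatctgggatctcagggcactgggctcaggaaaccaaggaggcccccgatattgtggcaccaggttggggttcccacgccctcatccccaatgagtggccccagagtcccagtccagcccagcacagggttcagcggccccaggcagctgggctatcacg
Acadm (GRCm38.p6, chr3:153944644-153944893, minus strand): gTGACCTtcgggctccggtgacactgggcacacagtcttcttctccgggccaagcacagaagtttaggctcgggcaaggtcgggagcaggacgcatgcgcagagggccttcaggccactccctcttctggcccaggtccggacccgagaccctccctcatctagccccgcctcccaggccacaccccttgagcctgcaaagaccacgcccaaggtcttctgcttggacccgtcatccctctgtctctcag
Hadhb (GRCm38.p6, chr5:30155003-30155252, plus strand): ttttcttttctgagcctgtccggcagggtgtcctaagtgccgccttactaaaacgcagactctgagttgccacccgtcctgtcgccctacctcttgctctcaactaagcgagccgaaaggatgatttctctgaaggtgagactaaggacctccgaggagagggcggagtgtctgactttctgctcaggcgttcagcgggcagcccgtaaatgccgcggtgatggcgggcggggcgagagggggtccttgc
Of these 4, Plin2 and Acadm hold 1 unit each on the reverse strand, and their differences with all mice were 0.42 and 0.031, while Pdk4, with none in the window, differed by 0.44.

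Neither receptor gene passed the test. Ppara, which encodes PPAR alpha, measured 7.04 to 8.23 (median 7.84) in the vehicle mice and 6.37 to 8.29 (median 7.97) in the CM-695 mice. The lowest value belonged to CM-695 mouse 2 and the ranges of the groups overlapped, with a difference of -0.029 (SE 0.31), 95% interval -0.69 to 0.63, adjusted p = 0.985. Without that mouse the difference was 0.24 (SE 0.21). Ppard, which encodes PPAR delta, was the steadier gene, at 6.54 to 6.93 (median 6.90) in the vehicle mice and 6.74 to 6.99 (median 6.88) in the CM-695 mice. Its difference was 0.042 (SE 0.091), with a 95% interval of -0.15 to 0.24 (adjusted p = 0.925), and 0.036 (SE 0.097) without CM-695 mouse 2.

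Angptl4, the lipase inhibitor and a PPAR target, was the gene of the set with the largest difference. Vehicle mice 1 to 6 measured 8.59, 9.43, 8.80, 8.26, 9.64 and 8.29, and CM-695 mice 1 to 6 10.20, 9.42, 10.20, 9.74, 10.38 and 9.60. The group means were 8.83 ± 0.58 and 9.92 ± 0.39 (SD, n = 6 each). Of the CM-695 mice, 4 lay above the highest vehicle mouse, and mice 2 and 6 lay within the vehicle range, so the groups overlapped. The difference was 1.09 (SE 0.26), which is 2.13-fold (unadjusted p = 0.000879, adjusted p = 0.144). Without CM-695 mouse 2 it was 1.19 (SE 0.26) or 2.28-fold (adjusted p = 0.115). The difference exceeded the SD of either group, but it did not pass the threshold over all probe sets with or without that mouse.

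**Figure D2:**
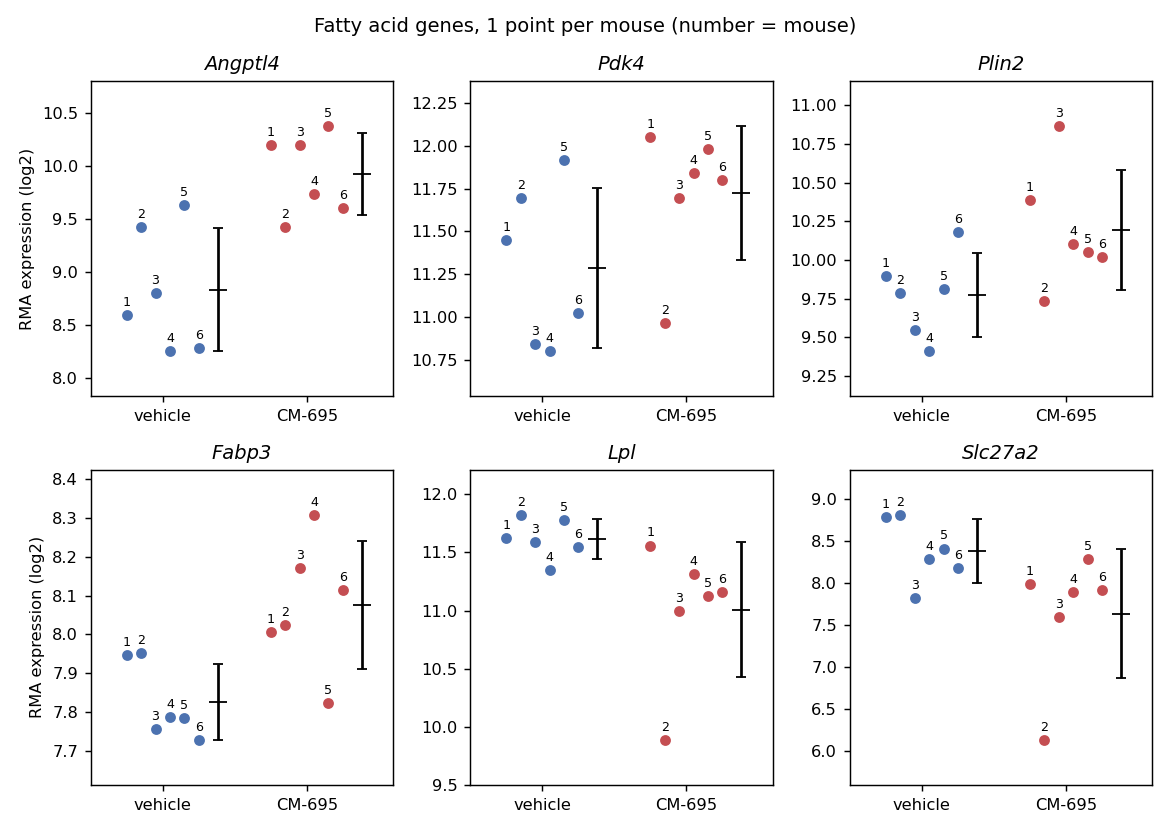
RMA expression (log2, vertical axis, a separate scale for each gene) of 6 genes with 1 numbered point per mouse, vehicle in blue and CM-695 in red, and the group mean with SD (n = 6) in black. Angptl4 is high in CM-695 mice 1, 3 and 5 and overlaps the vehicle range in mice 2 and 6, and mouse 2 is far below the other mice for Lpl and Slc27a2.

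Lpl, the lipase that ANGPTL4 inhibits, lay lower in most CM-695 mice without passing the test. It measured 11.34 to 11.82 (median 11.61) in the vehicle mice and 9.89 to 11.56 (median 11.14) in the CM-695 mice. Of the CM-695 mice, 5 lay below the lowest vehicle mouse and mouse 1, at 11.56, lay within the vehicle range, while mouse 2 was far below all others. The difference was -0.61 (SE 0.22, unadjusted p = 0.0173, adjusted p = 0.424), and without mouse 2 it was -0.39 (SE 0.12, unadjusted p = 0.00763, adjusted p = 0.278). The other Lpl probe set differed by -0.54 (SE 0.33, limma unadjusted p = 0.124). Gpihbp1, which anchors the lipase to capillary endothelium, measured 7.32 to 7.85 (median 7.77) in the vehicle mice and 6.85 to 7.77 (median 7.54) in the CM-695 mice. Its groups overlapped, with a difference of -0.26 (SE 0.16) and -0.14 (SE 0.14) without mouse 2.

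Among genes that carry fatty acids into and through the cell, the directions differed. Fabp3, the heart-type fatty acid binding protein, measured 7.73 to 7.95 (median 7.79) in the vehicle mice and 7.82 to 8.31 (median 8.07) in the CM-695 mice. All CM-695 mice except mouse 5 lay above the highest vehicle mouse, and the difference was 0.25 (SE 0.094) or 1.19-fold (unadjusted p = 0.0195, adjusted p = 0.442), nearly the same without mouse 2 at 0.26 (SE 0.10). Its dimmer probe set differed by -0.15 (SE 0.12), in the opposite direction. That probe set lay near the median of the vehicle arrays (4.72), with means of 4.75 in vehicle and 4.59 in CM-695 mice, so it says little. With the heart muscle markers as a covariate the difference of this heart-type gene was 0.25 (SE 0.13), about the same size, but its unadjusted p was 0.0841.

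Cd36, the fatty acid translocase, was near level between the groups, at 11.37 to 11.71 (median 11.62) in the vehicle mice and 10.74 to 12.01 (median 11.64) in the CM-695 mice. Its difference was -0.015 (SE 0.17) with a 95% interval of -0.38 to 0.35, and without mouse 2, again the lowest array, it was 0.15 (SE 0.10). Slc27a2, an acyl-CoA synthetase that aids uptake, was chosen after its values were seen, as the fifth gene with a low unadjusted p. It measured 7.83 to 8.82 (median 8.35) in the vehicle mice and 6.13 to 8.29 (median 7.91) in the CM-695 mice, with CM-695 mice 2 and 3 below the vehicle range. The difference was -0.75 (SE 0.31, unadjusted p = 0.0309, adjusted p = 0.493) with all mice and -0.45 (SE 0.18) without mouse 2, so that this 1 array moved it by more than 1.5 times. Its dimmer probe set, with means of 4.09 in vehicle and 4.01 in CM-695 mice, below the array median, differed by -0.078 (SE 0.16). The related transporter gene Slc27a1 measured 8.63 to 9.08 (median 8.80) in the vehicle mice and 7.97 to 9.12 (median 8.53) in the CM-695 mice, a difference of -0.28 (SE 0.19) with overlapping groups, or -0.19 (SE 0.19) without mouse 2. Gpihbp1 and Slc27a1 lie outside the rule for named genes; they were added to complete the group after their values were seen.

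None of the named genes that add or remove coenzyme A passed the test. Acsl5, a long-chain acyl-CoA synthetase, measured 7.59 to 9.97 (median 9.49) in the vehicle mice and 8.86 to 10.44 (median 9.89) in the CM-695 mice. Vehicle mouse 2 alone was at 7.59; the difference of 0.55 (SE 0.38) was 0.21 (SE 0.26) without that mouse. The thioesterase genes Acot1 and Acot2 are close copies that neighbour each other, so probes may not separate them fully and their values are uncertain. Acot1 measured 5.24 to 6.33 (median 5.73) in the vehicle mice and 4.48 to 6.25 (median 5.16) in the CM-695 mice, a difference of -0.46 (SE 0.27, adjusted p = 0.650). Acot2 measured 8.84 to 10.72 (median 9.99) in the vehicle mice and 9.63 to 10.70 (median 10.52) in the CM-695 mice, a difference of 0.43 (SE 0.29, adjusted p = 0.691). Without CM-695 mouse 2 these were -0.30 (SE 0.26) for Acot1 and 0.57 (SE 0.29) for Acot2, and without vehicle mouse 4 Acot2 differed by 0.23. The groups overlapped for both copies. Their signs were opposite with all mice, but with the white and brown adipocyte markers as a covariate and mouse 2 left out both were below 0, at -0.79 (SE 0.33) and -0.32 (SE 0.24).

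None of the 3 measured genes of the carnitine shuttle passed the test. Cpt1a, the liver-type carnitine palmitoyltransferase at the outer membrane, measured 6.82 to 7.52 (median 7.20) in the vehicle mice and 6.79 to 7.24 (median 6.93) in the CM-695 mice and differed by -0.15 (SE 0.13), or -0.20 (SE 0.13) without mouse 2. Unlike the other shuttle genes, it was not lowest in CM-695 mouse 2. Cpt2, the enzyme of the inner membrane, measured 9.23 to 10.09 (median 9.73) in the vehicle mice and 8.94 to 10.38 (median 9.92) in the CM-695 mice and differed by 0.11 (SE 0.24), or 0.28 (SE 0.19) without mouse 2. Crat, carnitine acetyltransferase, measured 10.26 to 10.91 (median 10.71) in the vehicle mice and 9.95 to 11.04 (median 10.81) in the CM-695 mice and differed by 0.036 (SE 0.18), or 0.18 (SE 0.14) without it. Adjusted p lay between 0.755 and 0.970 for these 3 genes. The dimmer Crat probe set, with means of 6.10 in vehicle and 6.42 in CM-695 mice, differed more, by 0.32 (SE 0.15). Its limma unadjusted p was 0.0555 (adjusted p = 0.557), and the difference was 0.39 without mouse 2.

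The 13 beta-oxidation enzymes shared their lowest mouse. All 13 had their lowest value of the 12 arrays in CM-695 mouse 2, and 11 had their lowest vehicle value in mouse 4. Their mean ran from 9.33 to 10.04 over the vehicle mice. It was 8.87 in CM-695 mouse 2 and 9.67 to 10.13 in the other 5, so these 5 lay within or just above the vehicle range. With all mice the median difference of the 13 genes was 0.078 (10 above 0, 3 below), and 0 had an unadjusted p under 0.05. Without mouse 2 the median was 0.24 with 13 of 13 above 0, and 1 gene, Hadh, had an unadjusted p under 0.05. A rise follows from leaving out the array that was lowest for all 13.

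Acadm, the medium-chain acyl-CoA dehydrogenase that starts a round of oxidation, measured 11.81 to 12.37 (median 12.02) in the vehicle mice and 11.14 to 12.54 (median 12.22) in the CM-695 mice. Its difference was 0.031 (SE 0.20) with a 95% interval of -0.40 to 0.46, and 0.22 (SE 0.13) without mouse 2. Hadh, which carries out the second dehydrogenation on shorter chains, measured 11.20 to 11.95 (median 11.71) in the vehicle mice and 11.13 to 12.08 (median 11.98) in the CM-695 mice; 4 CM-695 mice lay above the vehicle range and mouse 2 below it. It differed by 0.19 (SE 0.18, adjusted p = 0.796), and by 0.33 (SE 0.15) without mouse 2 (unadjusted p = 0.0479, adjusted p = 0.449).

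Hadhb, the beta subunit of the mitochondrial trifunctional protein, measured 4.87 to 6.02 (median 5.69) in the vehicle mice and 4.83 to 6.30 (median 5.80) in the CM-695 mice. It differed by 0.16 (SE 0.25), or 0.34 (SE 0.21) without mouse 2. Its values lay not far above the array median (4.72), while Hadha measured 11.38 to 11.98 in the vehicle mice. How well this probe set reads Hadhb was not tested, so its values are uncertain. Ehhadh, a peroxisomal enzyme and PPAR alpha target, had the widest spread among the CM-695 mice of the 13, at 7.53 to 8.41 (median 8.06) in the vehicle mice and 6.39 to 8.93 (median 7.88) in the CM-695 mice. Both ends of its range were CM-695 mice, with mouse 1 at 8.93 and mouse 2 at 6.39. Its difference of -0.21 (SE 0.33), or 0.066 (SE 0.25) without mouse 2, was smaller than the spread of the CM-695 group (SD 0.84, n = 6). The other 9 enzymes (Acadl, Acads, Acadvl, Hadha, Acaa2, Eci1, Eci2, Decr1 and Etfdh) differed by between -0.011 and 0.12 with all mice, and by between 0.14 and 0.34 without mouse 2.

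**Figure D3:**
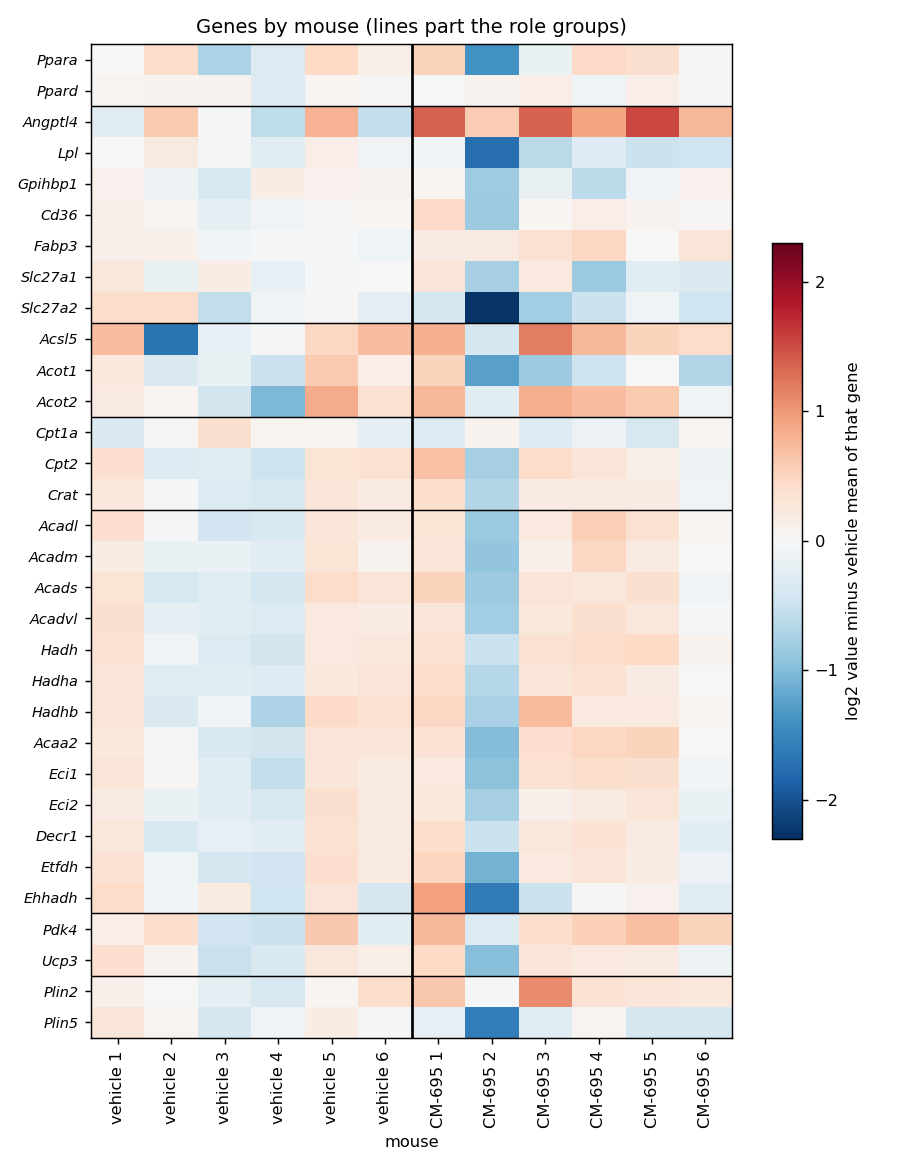
Each measured gene (rows, in the order of the roles above, parted by lines) in each mouse (columns, vehicle left and CM-695 right) as its log2 value minus that gene's vehicle mean; red is higher and blue lower. The column of CM-695 mouse 2 is blue over all 13 beta-oxidation enzymes, and vehicle mice 3 and 4 hold the lowest vehicle value of 28 of the 32 genes.

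Pdk4, pyruvate dehydrogenase kinase and a PPAR target that turns the cell from glucose to fatty acid oxidation, measured 11.45, 11.69, 10.84, 10.80, 11.92 and 11.02 in vehicle mice 1 to 6. CM-695 mice 1 to 6 measured 12.05, 10.97, 11.69, 11.84, 11.98 and 11.80. The vehicle mice split into 3 high and 3 low, mouse 2 was the only low CM-695 mouse, and the groups overlapped. The difference was 0.44 (SE 0.23) or 1.35-fold (unadjusted p = 0.0747, adjusted p = 0.591). Without mouse 2 it was 0.59 (SE 0.20, unadjusted p = 0.0120, adjusted p = 0.311). Ucp3, a mitochondrial carrier of the uncoupling family, measured 7.45 to 8.34 (median 8.07) in the vehicle mice and 6.98 to 8.42 (median 8.18) in the CM-695 mice and differed by 0.017 (SE 0.23), or 0.22 (SE 0.17) without mouse 2.

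The lipid droplet coat genes pointed in opposite directions. Plin2, which coats droplets in most cell types, measured 9.41 to 10.18 (median 9.80) in the vehicle mice and 9.73 to 10.87 (median 10.08) in the CM-695 mice. CM-695 mice 1 and 3 lay above the vehicle range, and the difference was 0.42 (SE 0.18, unadjusted p = 0.0358, adjusted p = 0.508), or 0.51 (SE 0.18) without mouse 2. Plin5, which coats droplets in oxidative tissue and tethers them to mitochondria, measured 8.54 to 9.21 (median 8.94) in the vehicle mice and 7.35 to 8.99 (median 8.61) in the CM-695 mice. It differed by -0.46 (SE 0.23, unadjusted p = 0.0653, adjusted p = 0.575) with all mice and by -0.24 (SE 0.13) without mouse 2, so that this array again moved it by more than 1.5 times.

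The spread of the fatty acid genes between mice was smaller once the level of fat markers was taken into account. With the mean of the brown adipocyte markers as a covariate, the residual SD (the spread between mice left by the fit) became smaller for 30 of the 32 genes, against 51.2% of all genes, and its median over the set went from 0.43 to 0.29. The markers of white and brown adipocytes also lowered it for 30 of 32 (50.9% of all genes), to a median of 0.21. Heart muscle markers did so for 3 of 32 (31.3% of all genes). For Eci1, an enoyl-CoA isomerase chosen after its values were seen, the residual SD was 0.44 without a covariate. It was 0.15 with the markers of white and brown adipocytes, and 0.28 with no covariate and CM-695 mouse 2 left out. For Lpl these values were 0.43, 0.20 and 0.19. That mouse had the lowest mean of both fat marker lists. With it left out, the white and brown covariate gave a residual SD of 0.15 for Eci1, against 0.28 with no covariate. For Lpl the covariate then gave 0.18 against 0.19, so little was left for it to lower. Over the whole set, the part of this mouse in the smaller spread was not tested. The mean of the 7 white and brown adipocyte markers, some of them PPAR targets in fat cells, was above the highest vehicle mouse in 4 of 6 CM-695 mice. At an unadjusted p under 0.05 were 7 of the 32 genes with the brown adipocyte covariate (9.57% of all genes), 7 with the white and brown one (10.5%) and 3 with the heart muscle one (6.78%).

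**Figure D4:**
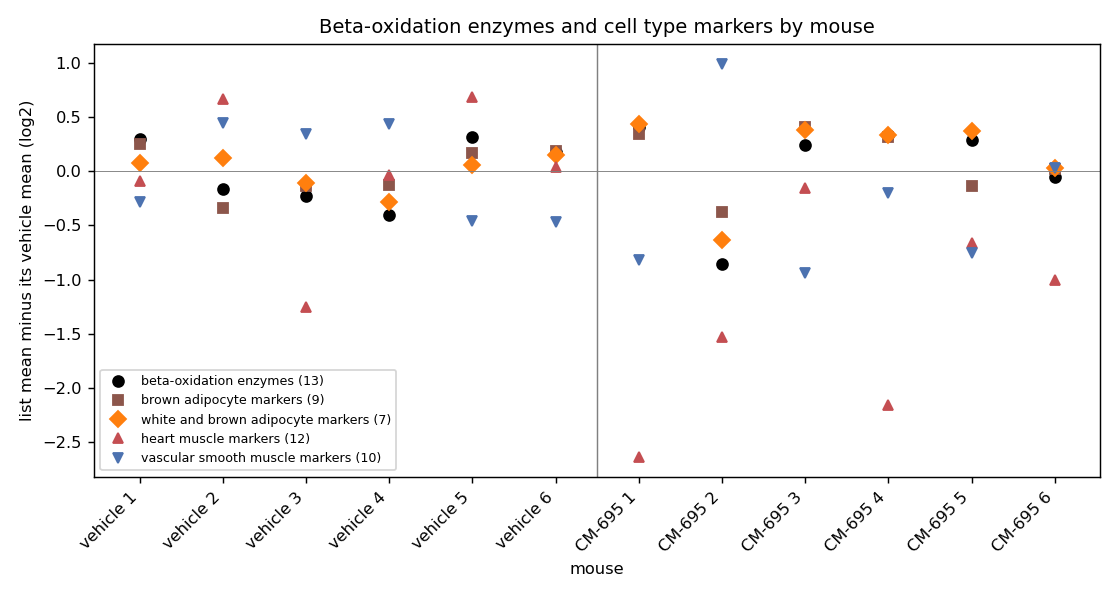
Mean of the 13 beta-oxidation enzymes (black circles) and of 4 lists of cell type markers in each mouse, each drawn as its distance from its own vehicle mean (log2, vertical axis). The enzymes and both fat lists are lowest in CM-695 mouse 2, where the smooth muscle markers are highest, while heart muscle markers are lowest in CM-695 mice 1 and 4.

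At equal fat marker level the lipase pair kept its opposite signs. Angptl4 differed by 1.07 (SE 0.27) with the brown adipocyte covariate (adjusted p = 0.183) and by 0.96 (SE 0.23) with the white and brown one (adjusted p = 0.150). Without CM-695 mouse 2 it differed by 1.25 (SE 0.30, adjusted p = 0.253) with the brown adipocyte covariate. With the white and brown covariate it then differed by 0.73 (SE 0.35, unadjusted p = 0.0571, adjusted p = 0.704). Lpl differed by -0.80 (SE 0.12) with the white and brown covariate and all mice, and passed the threshold (adjusted p = 0.0224). It was the 1 gene of the set to do so under any alternative, where 0.32% of all genes passed. That call was lost without CM-695 mouse 2 at -0.57 (SE 0.16, adjusted p = 0.538), where 0.0225% of all genes passed, and with the brown adipocyte covariate Lpl did not pass, at -0.69 (SE 0.20, adjusted p = 0.263). With the white and brown covariate Slc27a2 lay at -0.99 (SE 0.20, adjusted p = 0.0673) and Plin5 at -0.65 (SE 0.13, adjusted p = 0.0759), neither past the threshold. With this covariate, the 13 beta-oxidation enzymes had a median difference of -0.094, with 1 above 0 and 12 below, against 54.5% of all genes above 0. The sign of that median thus changed with the covariate, and 0 of the 13 had an unadjusted p under 0.05. With mouse 2 also left out, 0 of the 13 lay above 0 and 13 below (median -0.15). Of all 32 genes, 6 then lay above 0 and 26 below (median -0.15), against 51.4% of all genes above 0. The upward move of the set without mouse 2 was thus not kept with this covariate. With the brown adipocyte covariate and mouse 2 left out, it was kept in part. There 24 of the 32 genes lay above 0 and 8 below (median 0.081), against 53.2% of all genes above 0. Of the 13 enzymes, 12 lay above 0 and 1 below (median 0.087). Most CM-695 mice exceeded every vehicle mouse in the white and brown marker mean, so group and covariate cannot be fully told apart. Pdk4 stayed above 0 with the white and brown covariate, at 0.28 (SE 0.17), or 0.22 (SE 0.26) without mouse 2.

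**Figure D5:**
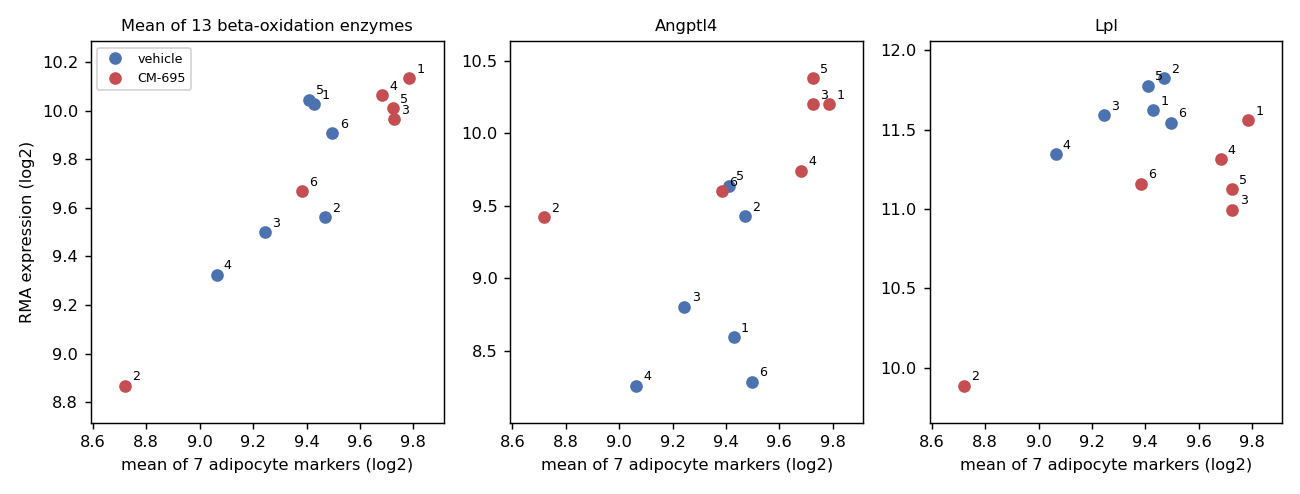
The mean of the 13 beta-oxidation enzymes, Angptl4 and Lpl (RMA expression, log2, vertical axes) against the mean of the 7 white and brown adipocyte markers (log2, horizontal axes), 1 numbered point per mouse, vehicle in blue and CM-695 in red. The enzymes line up with the markers across both groups. CM-695 mouse 2 has the lowest marker mean and the lowest Angptl4 value of the CM-695 mice, above those of vehicle mice 1, 3, 4 and 6.

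No other gene of the pathway passed the test with all mice. Of 108 further genes on a list of PPAR partners, transporters, mitochondrial and peroxisomal enzymes, pyruvate dehydrogenase regulators and lipid droplet genes, 96 were measured. With limma, 0 passed over all probe sets, with 6 higher and 5 lower at an unadjusted p under 0.05 (11.5%, against 9.1% of all genes), and the median difference was 0.026. Without CM-695 mouse 2, again 0 passed, with 15 higher and 7 lower at an unadjusted p under 0.05 (22.9%, against 12.1% of all genes), and the median was 0.11. CM-695 mouse 2 was the lowest of the 12 arrays for 46 of the 96 genes, against 13% of all genes.

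The transcription factor gene Klf15, which promotes amino acid and fatty acid use in fasting, had the smallest p of these and differed by -0.72 (SE 0.16, adjusted p = 0.127). It passed as the 1 such gene when CM-695 mouse 4 was left out. Ppargc1a, the coactivator PGC-1 alpha, differed by -0.46 (SE 0.26). Angptl8, which acts with other angiopoietin-like proteins on lipoprotein lipase, differed by 0.71 (SE 0.23, adjusted p = 0.344), in the direction of Angptl4. Abcd2, a peroxisomal transporter of very long chain fatty acids, measured 7.45 to 8.25 (median 8.06) in the vehicle mice and 7.72 to 9.70 (median 8.84) in the CM-695 mice. All CM-695 mice except mouse 2 lay above the vehicle range of Abcd2, and the difference was 0.81 (SE 0.27, adjusted p = 0.363), or 1.03 (SE 0.21) without mouse 2 (adjusted p = 0.0881).

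Oxct1, the enzyme that lets tissues burn ketone bodies, differed by -0.42 (SE 0.12), the carrier gene Slc25a34 by 0.42 (SE 0.13) and the thioesterase gene Acot4 by 0.29 (SE 0.11). Got2, a mitochondrial aspartate aminotransferase also found at the plasma membrane, differed by -0.51 (SE 0.16), and by -0.18 (SE 0.18) with the heart muscle markers as a covariate. Fitm1, a droplet-forming protein of striated muscle, differed by -0.92 (SE 0.28), and by -0.15 (SE 0.20) with that covariate, so that both moved by more than 1.5 times. The other 3 genes with an unadjusted p under 0.05, Dbi, Plin4 and Txnip, lay outside the rule for named genes and were chosen after their values were seen. Dbi, an acyl-CoA binding protein, differed by 0.35 (SE 0.16), the droplet coat gene Plin4 by -0.33 (SE 0.14) and the thioredoxin inhibitor gene Txnip by 0.39 (SE 0.15). The rule also named genes with larger p-values: the brain-type gene Cpt1c differed by -0.26 (SE 0.12), the kinase gene Pdk3 by -0.29 (SE 0.18) and the phosphatase gene Pdp2 by -0.22 (SE 0.16). None of these 11 genes passed with all mice, with adjusted p between 0.273 and 0.720.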

How the data were processed

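Aortic RNA of 12 mice, 6 per group by the sample titles, was measured on 1 array each. The deposited table held log2 values that the authors made with RMA, per the submitters' processing notes; the software is not named there. Medians of the 12 arrays were 4.69 to 4.74. A log2 value carries no detection call, and the number of arrays limits the precision.

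Gene names came from the annotation of the array platform (23521 with 1 symbol, 1814 with several, 16010 with none), and 32 of 32 measured genes matched RefSeq by gene identifier with 0 symbols changed. All probe sets were fitted in limma 3.58.1 (R 4.3.3; functions lmFit and eBayes, a two-sided test of the group term), with Benjamini-Hochberg adjustment over 41345 probe sets, a threshold of 0.05 and no fold threshold. The procedure was tested on simulated data. Figures were drawn with matplotlib 3.10.9. Covariates were per-array means of marker lists. Alternatives were a replicate block, a filter on dim probe sets, repeated quantile normalization or median centring, trend and array weights, each marker covariate, the mean of a gene's probe sets, a fold threshold and leaving out each mouse.

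The genes, role groups and lists were chosen with earlier results of these data known. Described in full were Angptl4, Pdk4, Ppara, Ppard, up to 3 genes per role group with the smallest p, the brightest gene of each group, and up to 2 per sublist of other pathway genes; others are said to have been chosen after their values were seen.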

Additional observations from a re-analysis of the deposited data

Results flagged for a closer look

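CM-695 mouse 2 lay far below the other 5 CM-695 mice for 11 of the 32 genes, with a gap to the next mouse past Dixon's 95% limit for 6 values. Its log2 values were 6.37 for Ppara, 9.89 for Lpl, 10.74 for Cd36, 6.13 for Slc27a2, 10.04 for Acadl, 11.14 for Acadm, 9.70 for Acadvl, 9.99 for Acaa2, 8.73 for Eci1, 10.97 for Pdk4 and 7.35 for Plin5. The same held for means over genes, at 8.49 for all 32 genes, 6.64 for the PPAR receptors, 8.45 for the lipoprotein lipase and uptake group, 8.87 for the beta-oxidation enzymes and 8.98 for the fuel switch and uncoupling group. In the vehicle group, mouse 4 lay below the others for Ppard alone, at 6.54 (next mouse 6.87). Chance puts about 1 in 20 groups past this limit, and 17 of 80 were past it, 16 of them through CM-695 mouse 2; genes and their means are not independent. The mean of the vascular smooth muscle markers was the highest of the 12 arrays in this mouse, and the means of both fat marker lists were the lowest. It held the lowest value of 6 of 7 white and brown adipocyte markers but of only 4 of 9 brown adipocyte markers. Its brown adipocyte mean (8.61) was close to that of vehicle mouse 2 (8.65). The part of these markers in the values above was not tested.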

How the results depend on the processing

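The differences of Angptl4 and Pdk4 kept their sign, and stayed short of the threshold, under all 25 alternatives each (Angptl4 0.73 to 1.37, Pdk4 0.22 to 0.64), 2 of which, a fat marker covariate together with leaving out CM-695 mouse 2, were chosen after seeing the data. Leaving out 1 mouse at a time gave 0.97 to 1.25 for Angptl4, 0.34 to 0.59 for Pdk4, -0.018 to 0.22 for the median of the set, 0 genes of the set past the threshold and 4 to 7 at an unadjusted p under 0.05, and 0 to 1 other pathway genes past it (Klf15, without CM-695 mouse 4). The count over all probe sets, 64, ran from 22 to 98 in this way; it rose to 98 without CM-695 mouse 2, stayed within 1.5 times without vehicle mouse 5 (54) and was 22 to 38 without each of the other 10 mice. It was 15 with the replicate number as a block, 102 among brighter probe sets, 13 with the heart muscle covariate, 97 with the brown adipocyte covariate and 102 with the white and brown one; the causes were not tested. The replicate block changed no call in the set. With it 6 genes had a limma unadjusted p under 0.05, among them Acot1 (0.0294) and Acsl5 (0.0467) but not Plin2 (0.0571). Deviations of same-numbered arrays correlated at -0.10 to 0.10 over all probe sets, with 1 of 6 over 0.1. No pairing by replicate number was thus seen over all probe sets, which cannot exclude one for single genes. The 5 genes at an unadjusted p under 0.05 became 3 with the heart muscle covariate and 2 when all probe sets of a gene were averaged, and 1 gene of the set, Lpl at -0.80, passed with the white and brown covariate. Signs changed: with array weights Ppara (0.089) and Cd36 (0.063); with the heart muscle covariate Ppara (0.13); with the brown adipocyte covariate Cpt2 (-0.031), Crat (-0.055), Acadm (-0.071) and Ucp3 (-0.097); with the white and brown one Cpt2 (-0.079), Crat (-0.12), Hadhb (-0.028), Acadm (-0.13) and Ucp3 (-0.18). With mouse 2 also left out, Ppara (0.21) and Cd36 (0.098) did so for the brown adipocyte covariate, and Ppard (-0.12), Acot2 (-0.32), Cpt1a (0.060), Cpt2 (-0.21), Crat (-0.21), Hadh (-0.064), Hadhb (-0.15), Acadm (-0.0054) and Ucp3 (-0.25) for the white and brown one. Leaving out 1 mouse turned the sign of Ppara (-0.17 to 0.24), Ppard (-0.019 to 0.070), Cd36 (-0.11 to 0.15), Cpt2 (-0.0048 to 0.28), Crat (-0.039 to 0.18), Acadm (-0.059 to 0.22), Ehhadh (-0.44 to 0.066) and Ucp3 (-0.084 to 0.22).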
